A study of Mus musculus with 9 samples.

Results

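The genes described here are 49 mouse genes by which fat cells take up, make, store and release fatty acids, together with the adipokines and other products that mark a mature fat cell. They were picked by symbol, from a list of named lipid genes, and all 49 had a row among the 20655 genes of the deposited tables. The cells came from white fat of the groin and armpit (inguinal and axillary depots) of wild type C57BL/6 mice aged 12 days, males and females mixed, and were sorted by flow cytometry. The sort gave 3 populations, DPP4+, ICAM1+ and CD142+, with 3 libraries each and 9 in all. No genetic change or treatment is named for any group, and whether each library of a population holds other animals is not stated. The value used for each gene was the authors' mean of the normalised read count over libraries, 1 number per gene for the 3 populations together. It carries no error, so no difference was tested. Columns that compare the populations with each other are the authors' own results and were not used here, so a gene high in 1 population and low in the others cannot be told apart from a gene at an even level in all of them.

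White fat cells obtain fatty acids from lipoproteins in the blood or make them from acetyl units, join them to a glycerol backbone as triglyceride, and keep the triglyceride in a droplet coated with perilipins. In fasting, lipases on the droplet release the fatty acids again. The sorted cells are stromal cells from the tissue around the fat cells, and progenitors of fat cells are found among such cells. A lipid-filled cell is recognised by the perilipin and CIDE proteins of its large droplet and by secreted products such as adiponectin and leptin. In bulk RNA, fewer cells that hold a transcript and less of it per cell cannot be told apart.

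Most genes of uptake and of fatty acid synthesis lay above the median gene in these cells. Droplet genes and adipokines lay on both sides, with 4 of 8 and 2 of 5 above it. Lep, Retn, Cidec and Cidea were below the median gene, and Plin2, Car3, Plin3, Bscl2 and Adipoq were above. Levels are given as the authors' mean normalised count per kb of exon, since a longer transcript collects more reads. On this scale the median over 20618 genes with an annotated length was 15.1, and the median of the 49 members was 31.7, or 2.10 times the median gene. In all, 34 members lay above the median gene and 15 below it. This count depended on the length used and on the genes compared with. With coding length, 7 members moved from above the median gene to below it, as given under the limits of the processing. Compared with protein-coding genes, 29 lay above the median. Of the 41 members with a mean normalised count of at least 10, 24 lay above the median of the 14143 such genes, and the other 8 members were under that limit. Among the highest 25% of genes were 21 members (42.9% of them), and among the highest 10% were 10. Among the lowest 25% were 7. The members ranged from Lpl at 992 to Lep at 0.299, a ratio of 3321, and the 4 highest, Lpl, Cd36, Fabp4 and Angptl4, held 46.4% of the summed level of all 49. Together the 49 members, out of 20618 genes, held 0.309% of the mean counts and 0.144% of the summed level per kb.

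**Figure D1:**
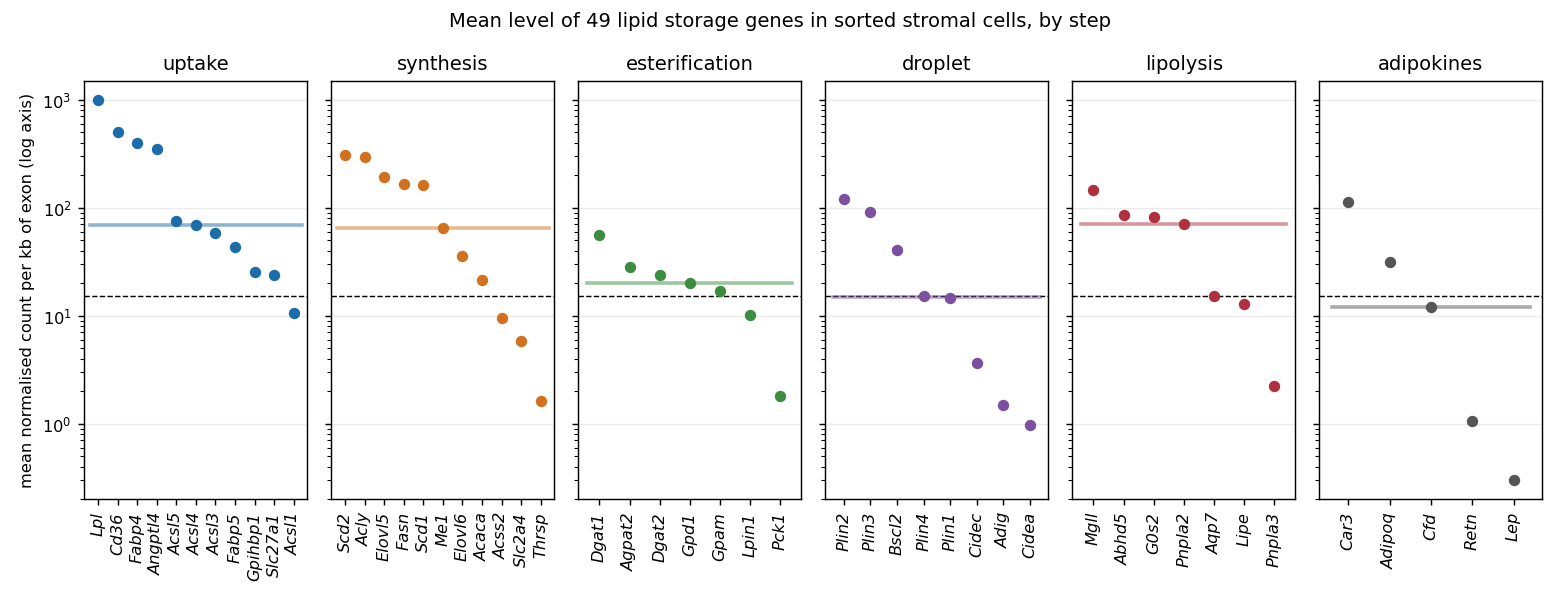
Mean level of each of the 49 members (points; mean normalised count per kb of exon, log axis), 1 panel per step, with the median of the step as a coloured line and the median gene of the tables (15.1) as a dashed line; the deposited means have no error bars. Uptake runs from Lpl at 992 to Acsl1 at 10.5, while the adipokine panel runs from Car3 at 112 to Lep at 0.299.

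Uptake, binding and activation of fatty acids had 10 of 11 members above the median gene, with a median of 68.7, and accounted for 52.8% of the summed level of the members. Lpl (ENSMUSG00000015568.16, chromosome 8, 68880491 to 68907448 in mm10, + strand) encodes lipoprotein lipase, which frees fatty acids from circulating triglyceride. Its mean normalised count was 10394 and its level 992, above that of 98.5% of genes. Cd36 (ENSMUSG00000002944.15, chromosome 5, 17781690 to 17888801, - strand), a membrane receptor for long-chain fatty acids, had a level of 498. Fabp4 (ENSMUSG00000062515.3, chromosome 3, 10204088 to 10208576, - strand), the cytosolic fatty acid carrier of fat cells, had 397. Cd36 stood above 97.1% of genes and Fabp4 above 96.3%.

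The level of Angptl4 (ENSMUSG00000002289.15, chromosome 17, 33773750 to 33781830, - strand), a secreted inhibitor of lipoprotein lipase, was 348 per kb. Per kb of exon, this placed an inhibitor of the lipase and the lipase itself among the 4 highest members. With coding length, Angptl4 (1002) lay below Scd2 (1559) and was not among the 4 highest. Gpihbp1 encodes the protein that holds lipoprotein lipase on the capillary wall and is made by endothelial cells, and its level was 25.4. The 5 endothelial markers had levels of 181 (Cdh5), 96.9 (Pecam1), 60.7 (Tie1), 34.9 (Kdr) and 10.3 (Emcn) in the same libraries. The part of endothelial cells in the Gpihbp1 value was not tested. The transporter Slc27a1 had 23.9 and Fabp5, a carrier found in many cell types, 43.0.

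The acyl-CoA synthetases, which activate fatty acids for further use, were present as 4 members. Acsl5 had a level of 76.0, Acsl4 68.7 and Acsl3 58.3 per kb. These levels lay within a ratio of 1.30 of each other. Acsl1, the form known from mature fat cells, had 10.5, below the median gene and the lowest level of the uptake step. With the longest transcript as the length, Acsl1 was above the median gene, as given under the limits of the processing.

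Synthesis had 8 of 11 members above the median gene and a median level of 65.2. Scd2 (ENSMUSG00000025203.5, chromosome 19, 44293674 to 44306864, + strand), a stearoyl-CoA desaturase, had 307 per kb. Acly (ENSMUSG00000020917.17, chromosome 11, 100476353 to 100528000, - strand), which makes cytosolic acetyl-CoA from citrate, had 292. Fasn (ENSMUSG00000025153.9, chromosome 11, 120805846 to 120824547, - strand) encodes fatty acid synthase and had 165. Its mean normalised count of 1804 was the second highest of the 49 members, next to that of Lpl, over an exon length of 10947 bases. The desaturase Scd1 had 163 and the elongase Elovl5 190, so that 5 members of the step lay among the highest 10% of genes.

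Other enzymes of synthesis were lower. Malic enzyme, Me1, which supplies NADPH, had 65.2 per kb, the elongase Elovl6 35.4 and acetyl-CoA carboxylase, Acaca, 21.4. Fasn was thus 7.71 times the level of Acaca, the enzyme before it in the pathway, with the union of exons as length, and 4.68 times with the longest transcript. Acss2, which activates acetate, had 9.58. Slc2a4, the insulin-regulated glucose transporter of fat and muscle, had 5.81, and Thrsp, a regulator of lipogenesis with high levels in lipogenic tissues, had 1.62. The mean normalised counts of Slc2a4 and Thrsp were 20.2 and 3.55.

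The glycerol backbone and esterification step was lower and more even, with a median of 20.02 and 5 of 7 members above the median gene. This count was not stable. With coding length, Dgat2, Gpd1 and Gpam lay below it, at 0.918, 0.826 and 0.662 times the median gene. Gpd1 and Gpam also lay below the median of protein-coding genes, 21.9 per kb. Dgat1 and Dgat2 both join the last fatty acid to diacylglycerol, and their levels were 56.2 and 23.8. Agpat2, an acyltransferase earlier in the pathway, had 28.1. Gpd1, which makes glycerol phosphate from a glycolytic intermediate, had 20.02 and Gpam, the mitochondrial acyltransferase that starts the pathway, 16.9. Exons on the other strand overlap 13.0% of the exonic sequence of Gpd1, which can change its value. The phosphatidate phosphatase Lpin1 had 10.1. Pck1, which feeds glycerol synthesis in fasted fat cells, had 1.81 per kb and a mean normalised count of 6.21. Apart from Dgat1, no member of this step was among the highest 25% of genes.

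Droplet genes were split. Of 8 members, 4 lay above and 4 below the median gene, and the median of the step, 14.9, was 0.987 times the median gene, or 1.66 times without division by length. Plin2, a coat protein of small droplets in most cell types, had 120 per kb and Plin3, a coat protein found widely and partly in the cytosol, 90.5. Plin1, the coat of the large droplet of fat cells, had 14.6 and Plin4, found in fat cells and muscle, 15.2. With the longest transcript as length, Plin1 lay above the median gene and Plin4 below it. Bscl2 encodes seipin, needed for droplet formation at the endoplasmic reticulum, and had 41.0. Cidec and Cidea, which fuse droplets in white and brown fat cells, had 3.61 and 0.966. Adig, a small adipocyte membrane protein, had 1.49. Cidea and Adig had mean normalised counts of 1.08 and 1.21, close to the lowest mean listed for any gene, 0.721.

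The sequences before the starts of the 4 perilipin genes are shown because their levels fall into a higher and a lower pair. Each is the RefSeq window on GRCm38.p6 from 250 bases before to 50 bases after the start, 300 bases in all, 5′ to 3′ on the strand of the gene. Capitals mark letters of the motifs searched on both strands: TATAAA for the TATA box, CCAAT for the box of that name, GGGCGG for the GC box, CACGTG for the E-box, AGGTCA for a nuclear receptor half-site, that half-site followed by any base and by itself again for its direct repeat, TTGCGCAA for the C/EBP palindrome and TCACNCCAC for the sterol element. The half-site is contained in the direct repeat. Plin2 lies at chr4:86670010-86670309, Plin3 at chr17:56290462-56290761, Plin4 at chr17:56109733-56110032 and Plin1 at chr7:79732727-79733026, all on the - strand.
Plin2: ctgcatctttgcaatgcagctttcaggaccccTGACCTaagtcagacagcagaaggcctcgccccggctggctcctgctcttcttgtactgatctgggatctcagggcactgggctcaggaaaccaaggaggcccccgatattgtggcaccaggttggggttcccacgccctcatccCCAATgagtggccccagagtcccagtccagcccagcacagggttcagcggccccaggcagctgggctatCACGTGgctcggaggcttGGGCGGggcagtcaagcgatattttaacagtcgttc
Plin3: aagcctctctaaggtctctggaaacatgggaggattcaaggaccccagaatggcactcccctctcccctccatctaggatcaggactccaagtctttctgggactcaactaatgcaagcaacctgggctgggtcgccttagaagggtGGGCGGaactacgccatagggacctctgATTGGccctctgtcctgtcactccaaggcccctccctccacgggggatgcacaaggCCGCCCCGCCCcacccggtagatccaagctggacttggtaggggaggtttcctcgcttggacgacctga
Plin4: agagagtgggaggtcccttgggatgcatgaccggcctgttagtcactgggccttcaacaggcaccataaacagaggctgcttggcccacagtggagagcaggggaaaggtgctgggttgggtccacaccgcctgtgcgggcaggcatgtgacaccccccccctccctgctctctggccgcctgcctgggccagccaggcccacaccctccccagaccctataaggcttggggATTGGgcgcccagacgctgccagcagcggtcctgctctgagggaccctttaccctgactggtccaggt
Plin1: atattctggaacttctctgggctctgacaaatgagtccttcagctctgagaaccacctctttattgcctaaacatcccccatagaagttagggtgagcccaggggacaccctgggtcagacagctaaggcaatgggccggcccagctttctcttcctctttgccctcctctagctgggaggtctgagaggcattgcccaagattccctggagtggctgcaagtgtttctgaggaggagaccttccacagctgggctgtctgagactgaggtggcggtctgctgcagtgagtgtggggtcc

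The Plin2 window held a CCAAT box, a GC box, an E-box and a half-site, and that of Plin3 a CCAAT box and 3 GC boxes, of which 2 overlap. The Plin4 window held 1 CCAAT box and that of Plin1 none of these letters. A match is a run of letters and says nothing about binding, and its relation to the levels was not tested. Promoter windows were at hand for 36 of the 49 members. The 13 without a window were Angptl4, Car3, Cidea, Dgat1, Dgat2, Fabp4, Fabp5, Gpd1, Gpihbp1, Lpl, Scd1, Scd2 and Slc2a4. The shares below therefore leave out several of the highest members. The median GC content was 57.7% over the members' windows and 52.7% over all windows, and its part in the shares was not tested. Per gene, the GC box was in a window of 21 of the 36 (58.3%, against 38.2% of all 27025 genes with a window), and the CCAAT box in 19 (52.8% against 41.1%). The half-site was in 10 (27.8% against 18.1%) and the E-box in 5 (13.9% against 8.09%). The TATA letters were in 0 of the 36 (15.7% of all genes), and the direct repeat also in 0 (0.0481%). The C/EBP palindrome was in 1, Lep, and the sterol element in 1, Acsl1 (0.207% and 1.44% of all genes). These shares were not tested, and genes with several windows count once.

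In the lipolysis step, 5 of 7 members lay above the median gene, and the median was 70.3, which was 4.66 times the median gene per kb and 1.62 times without division by length. Mgll, monoglyceride lipase, which completes lipolysis, was highest with 146 per kb. Abhd5, the activator of adipose triglyceride lipase, had 85.2 and G0s2, its inhibitor, 81.4. The lipase itself, encoded by Pnpla2 (ENSMUSG00000025509.15, chromosome 7, 141455198 to 141460743, + strand), had 70.3. Lipe encodes hormone-sensitive lipase, which acts next, and had 12.9, below the median gene, but was 1.07 times the median gene with the longest transcript as length. The glycerol channel Aqp7 had 15.3. Pnpla3, a relative of Pnpla2 with high levels in lipogenic tissue, had 2.21. An antisense gene overlaps 16.0% of the exonic sequence of Abhd5 and 15.6% of that of Lipe. Without strand, reads from these stretches cannot be told apart. If counting ignored strand, such reads were counted apart from the genes, and the overlap can lower these values. The strand setting is not stated, so the direction is not known.

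Adipokines and other fat cell products had the lowest median of the 6 groups, 12.2, with 2 of 5 members above the median gene. Car3, carbonic anhydrase, an abundant cytosolic protein of fat cells and muscle, had 112 per kb, above 87.1% of genes. Adipoq (ENSMUSG00000022878.5, chromosome 16, 23146536 to 23158028, + strand), which encodes adiponectin, had 31.7 and a mean normalised count of 43.8. Adipsin, Cfd, had 12.2. Retn, which encodes resistin, had 1.05 and Lep (ENSMUSG00000059201.12, chromosome 6, 29060220 to 29073877, + strand), which encodes leptin, 0.299. Lep ranked 283 from the lowest of 20618 genes, with a mean normalised count of 1.002. Fabp4 was 12.5 times the level of Adipoq, and 76.2 times with coding length.

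**Figure D2:**
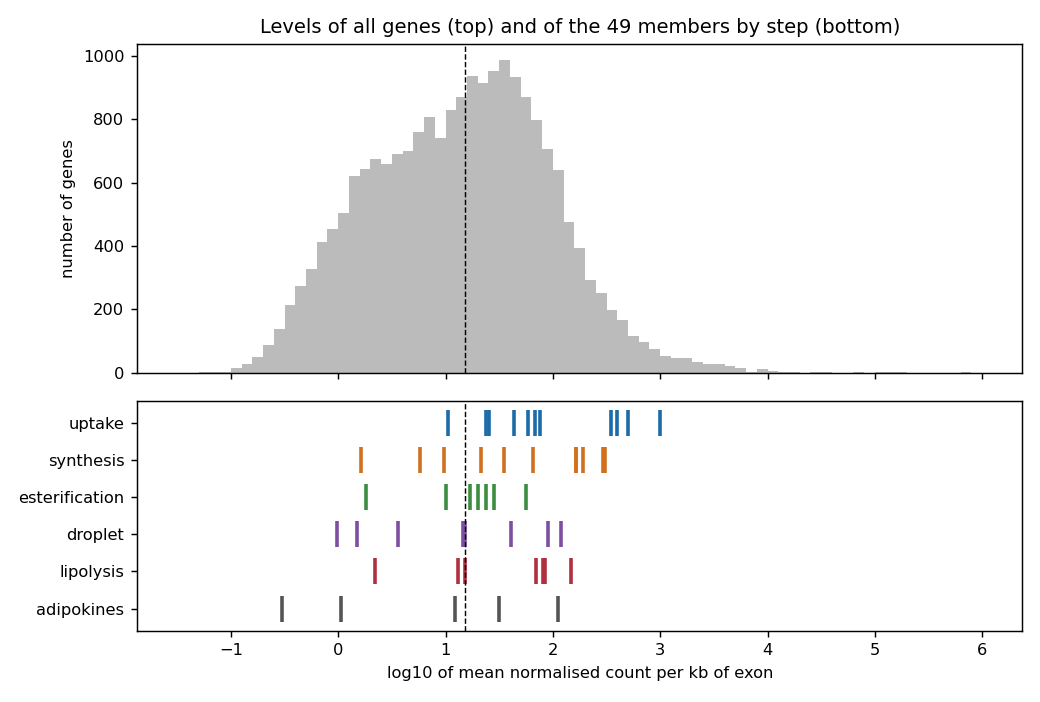
Histogram of the level of all 20618 genes (top; log10 of the mean normalised count per kb of exon) and the 49 members as ticks by step (bottom), with the median gene as a dashed line. The uptake ticks lie to the right of the median gene with 1 exception, Acsl1, while droplet and adipokine ticks lie on both sides.

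Related genes with one enzyme or carrier function stood apart from each other by different ratios. Fabp4 was 9.23 times the level of Fabp5, Pnpla2 31.8 times that of Pnpla3 and Elovl5 5.38 times that of Elovl6. Scd2 was 1.88 times the level of Scd1 and Dgat1 2.36 times that of Dgat2. Among perilipins, Plin2 was 1.33 times the level of Plin3, 7.89 times that of Plin4 and 8.24 times that of Plin1. These ratios rest on the length used. With coding length, Fabp4 was 11.9 times Fabp5 and Elovl5 2.63 times Elovl6, and with the longest transcript Plin2 was 2.38 times Plin3. In each of these pairs the order was the same under the 3 measures of length. No error belongs to these ratios, so the order of genes with close levels, such as Acsl5 and Acsl4 or Abhd5 and G0s2, cannot be stated.

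**Figure D3:**
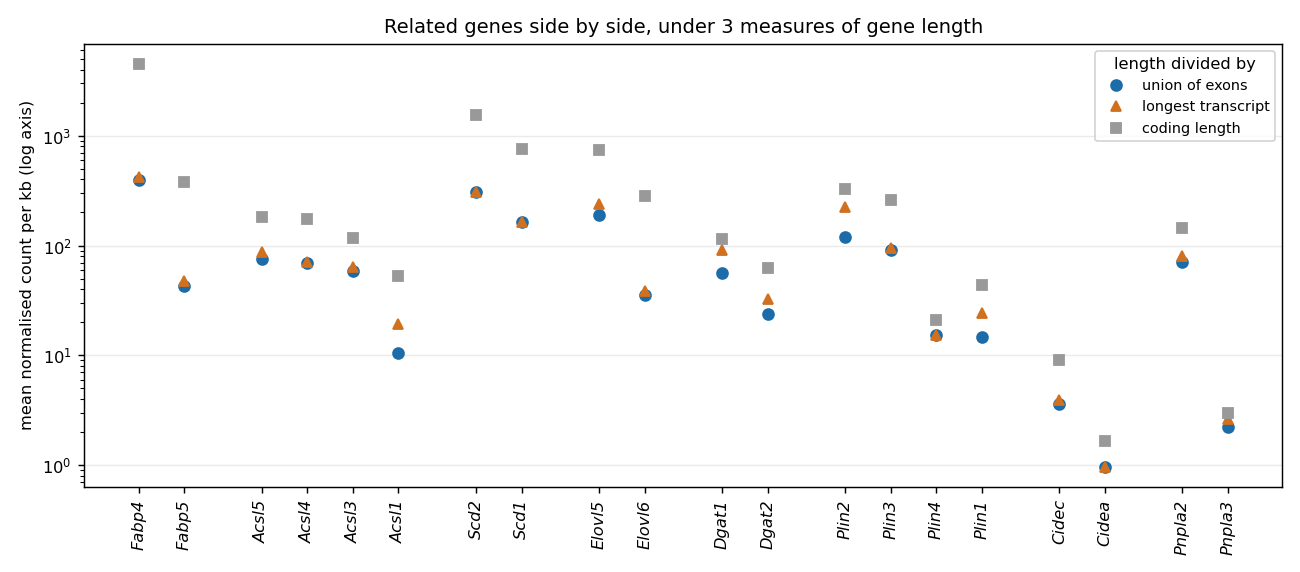
Levels of related members (log axis; mean normalised count per kb) with the length taken as the union of exons (circles), the longest transcript (triangles) or the coding sequence (squares). Coding length raises the value of short coding sequences most, as for Fabp4, from 397 to 4504.

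Some members lie near each other on the genome. Scd2 and Scd1 are 87.6 kb apart on chromosome 19, and Fabp5 and Fabp4 187 kb apart on chromosome 3. Plin4 and Plin3 are 168 kb apart on chromosome 17. Gpam and Acsl5, which are not related in sequence, are 125 kb apart on chromosome 19. No other members of the 49 lay within 250 kb of each other. Beside each other, Scd2 and Scd1 had levels of 307 and 163, Fabp5 and Fabp4 43.0 and 397, Plin4 and Plin3 15.2 and 90.5, and Gpam and Acsl5 16.9 and 76.0.

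Reads that fit several places or overlapping genes were counted apart from the genes, so close copies and overlaps on the same strand can lower a value. For overlaps between strands, the direction depends on the strand setting, which is not stated. For 28 of the 49 members, no stretch of 75 bases of an annotated transcript occurred in a transcript of another gene. For 3 members, more than 10% of such stretches did. These were Acaca (26.8%, mostly shared with the gene Gm5182), Me1 (20.01%) and Abhd5 (14.2%, all with the overlapping gene A730085K08Rik). Between the desaturases the share was small, 3.15% for Scd1 and 1.78% for Scd2, and for Fabp5 it was 3.02%. Levels of Acaca, Me1 and Abhd5 are uncertain for this reason.

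Markers of stromal cells were at high levels, as the labels imply. All 9 stromal markers lay among the highest 10% of genes, with Pdgfra at 364 and Dcn at 5238 per kb. The transcripts of the sort proteins were at 332 for Dpp4, 1237 for Icam1 and 267 for F3. Of 9 genes picked from the members as markers of mature fat cells, 8 lay below the median gene. The summed level of the 9 was 72.5. Adipoq was the exception. These 9 leave out Fabp4 and Car3, members that fat cells also hold in large amounts, which had levels of 397 and 112. They also leave out Lpl and Cd36, at 992 and 498, and they include Slc2a4, a transporter of muscle too. Another choice of members would thus give another picture. Plin1, close under the median gene, lay above it with the longest transcript as length, and Adipoq below it with coding length. For comparison, the summed level was 906 over 5 mural markers, 384 over 5 endothelial markers, 113 over 7 immune markers, 25.2 over 3 skeletal muscle markers and 12.9 over 3 epithelial markers. A sum depends on the number of genes in the list. The medians were 3.61 for the 9 fat cell genes, 261 for mural, 60.7 for endothelial, 16.3 for immune, 4.99 for muscle and 3.60 for epithelial markers. The part of these other cells in the members' levels was not tested. Lpl, for example, is also made by muscle and immune cells, and Car3 by muscle, whose markers Acta1, Ckm and Myh4 had levels of 19.5, 4.99 and 0.672.

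**Figure D4:**
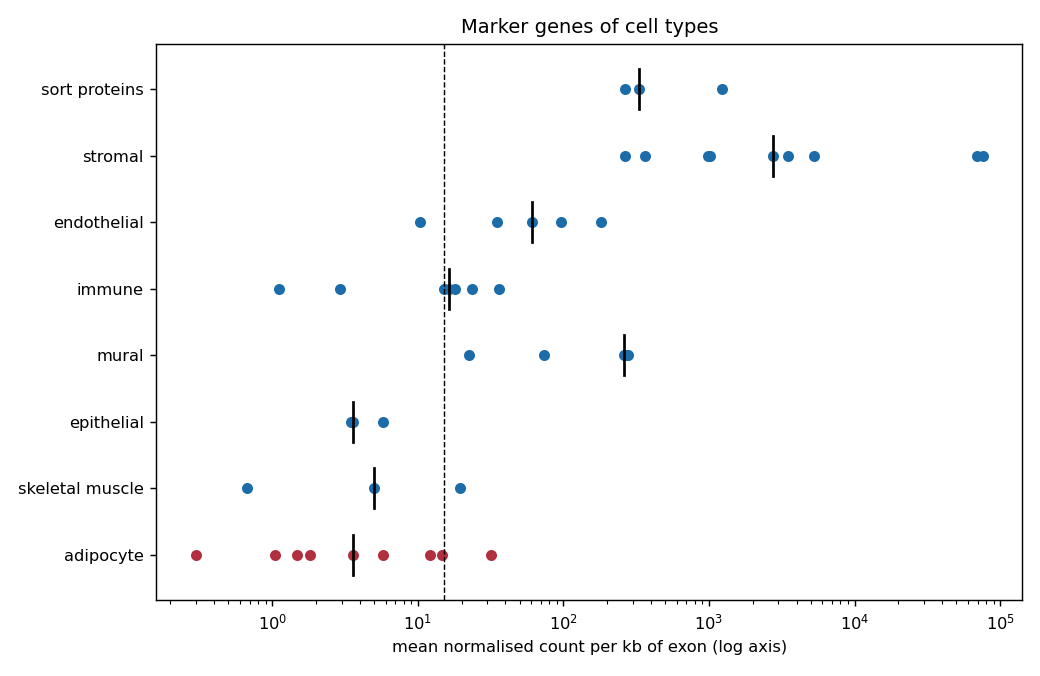
Level of each marker gene (points; mean normalised count per kb of exon, log axis) by cell type, with the median of the list as a bar and the median gene as a dashed line. The 9 adipocyte genes (red) have a median of 3.61, against 2752 for the 9 stromal genes.

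Further genes of the same pathway were listed by the same steps. Of 43 listed, 41 were in the tables, with a median of 32.8, and 26 of them lay above the median gene. Among uptake genes, Cavin1 and Cav1, which build the caveolae abundant in fat cells and endothelium, had 1710 and 467 per kb. The VLDL receptor, Vldlr, had 51.5. Fads1 and Fads2, desaturases of polyunsaturated fatty acids, had 130 and 103, and Srebf1, a regulator of lipogenic genes, 80.2. Mlxipl, which encodes the carbohydrate-responsive regulator of these genes, had 1.57. Acyltransferases related to Gpam and Agpat2 lay on both sides of those members. Gpat4 was at 89.9 and Gpat3 at 9.69, beside Gpam at 16.9. Agpat4 was at 148, Agpat1 at 101, Agpat3 at 96.0 and Agpat5 at 9.35, beside Agpat2 at 28.1. The perilipin of oxidative tissues, Plin5, had 1.75. Hilpda, an inhibitor of Pnpla2 induced by low oxygen, had 103. Of 5 further secreted products, 4 lay above the median gene, and their median was 75.8. Rarres2, which encodes chemerin, had 709 and Rbp4, a retinol carrier, 75.8, against 31.7 for Adipoq.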

How the data were processed

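The labels describe messenger RNA selected with oligo(dT) beads, copied from random primers and sequenced from both ends, with no step that marks the strand. The submitters' processing notes name STAR 2.5.2a, mm10, DESeq2 without a version and R 3.5.1. Neither the annotation nor the strand setting is stated in the sources used here. Each of the 3 deposited tables holds 20659 rows. The column used is a deposited signal that the authors computed by scaling read counts with size factors and averaging them over libraries, and it was identical in the 3 tables. The remaining columns hold the authors' comparisons of the populations (log2 fold changes, standard errors, test statistics, p-values) and were not used. No values per library were analysed here, so depth and precision per library are unknown. Of the summed means, 59.6% were in 4 rows that name no gene, and these rows were left out. The largest of them, with 46.5%, counts reads assigned to no feature. Whether those reads came from outside genes cannot be told, since neither the annotation nor the strand setting is stated.

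Identifiers without version were matched to GENCODE M21 (GRCm38, the same assembly as mm10), which gave symbol, position and exons to 20618 genes and left 37 unmatched. The mean was divided by the length of the union of exons in kb with Python 3.11.15 and pandas 2.3.3, with no filter on low values and no pseudocount. The code for the ratio to the median gene was checked on made-up levels, which says nothing about these data. Promoter windows are from RefSeq. Members and lists were chosen with earlier results of these data known, and every member is described. Alternatives were another length, other genes compared with, and leaving out overlapping or abundant genes. With 1 pooled value per gene no comparison could be tested. 1 further marker list is not reported here.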

Additional observations from a re-analysis of the deposited data

How the results depend on the processing

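With length as the union of exons, as the longest transcript or left out, the median of the members was 2.10 to 2.97 times the median gene. In these 3 settings, 34 to 37 of the 49 members lay above it. Coding length is not among the 3 and is given below. In 2 alternatives chosen after seeing the data, the median was 1.45 times that of protein-coding genes, and 1.72 times that of the 14143 genes whose mean reached 10, where 41 members were left. Of these 41, 24 lay above the median gene (8 were dropped), and 29 of the 49 lay above that of protein-coding genes. The share of the summed level per kb that the 49 members held was 0.144% over all 20618 genes. It was 0.261% over the 15169 protein-coding genes alone, whose total leaves out noncoding genes. Without division by length, the step medians were 7.89 times the median gene for uptake, 7.79 for synthesis, 1.66 for droplet, 1.62 for lipolysis and 0.239 for adipokines, against 4.55, 4.32, 0.987, 4.66 and 0.805 per kb. With the longest transcript as length, 47 of 49 members kept their ratio to the median gene within 1.5 times. Lpl was at 132 times and Acss2 at 1.41 times the median gene, against 65.7 and 0.635. Acsl1, Acss2, Aqp7, Gpam, Lipe, Plin1 and Plin4 changed sides of the median gene. With coding length, 16 members stayed within 1.5 times and 33 did not, 29 of them lower. Acaca, Adipoq, Aqp7, Dgat2, Gpam, Gpd1 and Plin4 changed sides, all from above the median gene to below it. The median gene is then taken over genes with a coding sequence. No paired analysis was possible because the values are pooled over libraries, and no replicate could be left out. Levels near the lowest mean listed, such as those of Lep, Cidea and Adig, rest on few reads.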
